A study of Mus musculus with 120 samples.

Results

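Sycp1, Rab27a, Poln, Rnaset2b and Dtnbp1 are 5 of the 53656 genes in tables of soleus and heart RNA from mice with mitochondrial mutations. They were chosen by their counts in these libraries, which stood higher in mice that lack the adenine nucleotide translocator ANT1 than in 3 strains with mutations of mitochondrial DNA. The values that chose them are therefore given below as descriptions without a test, and tests are kept for training, for the mtDNA strains among themselves and for other genes. Sycp1 RNA was present in all 24 ANT1 libraries of both tissues and, at 1 count each, in 2 of 72 libraries of the other strains. For Rab27a, Poln, Rnaset2b and Dtnbp1 all 12 ANT1 soleus libraries lay above all 36 others after TMM scaling, as for 508 of all 13935 genes tested (3.65%). Rnaset2b and Dtnbp1 overlapped in soleus on library totals and in FPKM. In heart none of these 4 genes separated the strains completely.

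ANT1 mice (label ANT1-/-, Slc25a4-/-) were set against ND5 mice (ND5S204F, m.12352C>T), ND6 mice (ND6P25L, m.13997G>A) and CO1 mice (CO1V421A, m.6589T>C), which carry missense changes in subunits of complex I or complex IV encoded by mitochondrial DNA (mtDNA). All 4 strains are described as being on the C57BL/6Eij background with intact Nnt. From 16 weeks of age the exercised mice ran on alternate days for 45 min at 50% of their maximal capacity over 8 weeks, and soleus and heart were collected 6 days after their last run. The non-exercised mice were handled only. Each strain, treatment and tissue had 6 libraries, in 16 groups and 96 libraries. The labels do not say how each line was made or over how many generations it was crossed to the background strain, and the B6 control mice are not analysed here. Below, "mtDNA strains" means ND5, ND6 and CO1 together, 36 libraries per tissue.

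The 5 genes belong to different processes. Sycp1 encodes the transverse filament of the synaptonemal complex, which holds paired chromosomes together in meiosis, and its RNA is known from germ cells. Rab27a encodes a small GTPase that docks lysosome-related organelles, such as melanosomes and lytic granules, at the plasma membrane through effectors such as melanophilin. Poln encodes DNA polymerase nu, an A-family polymerase that can copy past DNA damage. Rnaset2b is 1 of a pair of near-identical mouse genes for RNase T2, an acid ribonuclease of the lysosome that is also secreted. Dtnbp1 encodes dysbindin, a subunit of the BLOC-1 complex in endosomal sorting, named for its binding to dystrobrevin, a partner of dystrophin in muscle. Inbred backgrounds can differ in a transcript through a sequence difference at or near its gene, and chromosome segments around a targeted locus can keep the sequence of the strain the allele was made in.

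Library totals were 13.5 to 18.6 M counts in ANT1 soleus and 10.2 to 20.7 M in soleus of the mtDNA strains (M for mega), and 21 to 24.3 M in ANT1 hearts and 19.7 to 26.5 M in hearts of the mtDNA strains. Slc25a4, the targeted gene, had 4.96 to 22.1 CPM (counts scaled to library size) in ANT1 soleus and 2170.0 to 4021 CPM in soleus of the mtDNA strains, and 1.89 to 6.13 CPM in ANT1 hearts and 470.7 to 3892 CPM in the others, so no library went against its label as ANT1 or not ANT1. Reads of mtDNA genes took 34.0 to 47.6% of counts in ANT1 soleus and 12.9 to 24.8% in the others, and 21.6 to 39.4% in ANT1 hearts and 9.23 to 32.1% in the others, which makes levels depend on the scaling. CPM here is scaled by TMM (trimmed mean of M values), and values on library totals without TMM stand beside the genes they move. Sums over marker lists are the exception, given as CPM on library totals without TMM. In soleus the TMM factors were 0.618 to 0.835 in ANT1 and 0.989 to 1.36 in the others. TMM scaling would therefore raise soleus sums of ANT1 relative to the others. The soleus markers Myh7, Myh2, Tnnt1, Tnni1, Myl2, Actn2, Ckm and Acta1 all passed the filter on low counts in soleus, as did all 8 ventricle markers in heart. On library totals the ventricle markers summed to 40615 to 52768 CPM in ANT1 hearts. In hearts of the mtDNA strains the sum was 6993 to 61077 CPM with a median of 50923, so ventricular RNA was low in at least 1 of them. Atrial RNA varied between hearts in every strain. In 22 of 48 hearts the atrial light chain Myl7 was under 10 CPM, of which 6 were ANT1 hearts and 16 were hearts of the mtDNA strains (10 of these CO1). Ucp1, a marker of brown fat, stood highest in the hearts of ND5 mice B11 and B80 and ND6 mouse I63, at 229.6, 202.2 and 142.2 CPM, and at 47.2 CPM or less in the others. The code of mouse B80 carries opposite training labels in the 2 tissues.

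All 5 genes and the partners named here had a RefSeq entry, and 3 windows around a start site are printed because later results turn on them: Sycp1 as a germ cell gene read in muscle and heart, and Rnaset2b with Rnaset2a because their reads can hardly be told apart. Each runs 5′ to 3′ on the gene's strand, from 250 bases before the RefSeq start to 50 after it, in build GRCm38.p6. Capitals mark matches, on either strand, to CACGTG (the E-box), CTCGCGAG (a palindrome), GGGCGG (the GC box), CCAAT (the CCAAT box) or TATAAA (the TATA box).
Sycp1 (chr3:102936051-102936350, minus strand): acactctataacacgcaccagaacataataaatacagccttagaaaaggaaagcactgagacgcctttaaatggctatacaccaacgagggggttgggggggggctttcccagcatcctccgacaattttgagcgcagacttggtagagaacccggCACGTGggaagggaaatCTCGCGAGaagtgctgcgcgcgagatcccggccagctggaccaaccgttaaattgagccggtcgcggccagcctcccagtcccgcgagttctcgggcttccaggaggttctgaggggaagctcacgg
Rnaset2b (chr17:6978610-6978909, plus strand): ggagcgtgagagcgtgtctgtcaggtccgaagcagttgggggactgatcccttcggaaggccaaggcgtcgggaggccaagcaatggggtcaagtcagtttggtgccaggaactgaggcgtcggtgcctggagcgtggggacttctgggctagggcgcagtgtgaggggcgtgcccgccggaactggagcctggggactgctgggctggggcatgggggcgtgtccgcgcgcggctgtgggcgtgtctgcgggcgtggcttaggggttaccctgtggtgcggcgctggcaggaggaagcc
Rnaset2a (chr17:8147738-8148037, minus strand): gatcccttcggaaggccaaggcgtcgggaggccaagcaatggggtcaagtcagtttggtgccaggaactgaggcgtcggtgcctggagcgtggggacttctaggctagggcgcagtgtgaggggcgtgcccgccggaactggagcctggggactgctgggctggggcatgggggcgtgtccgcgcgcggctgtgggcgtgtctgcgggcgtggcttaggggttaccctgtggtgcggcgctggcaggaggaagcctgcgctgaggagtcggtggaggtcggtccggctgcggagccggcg
The Sycp1 window holds CACGTG 94 bases and CTCGCGAG 77 bases before the start. Among 32851 mouse promoter windows of this length, 7.15% hold CACGTG and 0.919% hold CTCGCGAG. In the Rnaset2 pair none of the 5 motifs was found, and in the windows printed 254 of 255 aligned bases were identical, with a longest shared run of 153 bases. RefSeq gives Rnaset2a another start, whose window aligned with that of Rnaset2b over 26 bases, 19 of them identical, with a longest shared run of 11. The windows of Rab27a, with 1 match to GGGCGG at the first of its 2 starts, and of Dtnbp1, with 3, are not printed, and 35.7% of all windows hold GGGCGG at least once. At its second start Rab27a has 1 match to CACGTG and 2 to CCAAT, which 37.4% of all windows hold. A match is a run of letters and does not show that a factor binds there.

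Sycp1 (ENSMUSG00000027855, chr3:102818499-102936100, minus strand in GRCm38 with GENCODE vM21, as are the other spans) was read in ANT1 mice and hardly at all elsewhere. In soleus it had 0.935, 2.37 and 2.91 CPM (lowest, median, highest of 6) in exercised ANT1 mice and 1.86, 2.31 and 3.29 CPM in those not exercised, against 0 CPM in 35 of 36 libraries of the mtDNA strains. The ANT1 soleus libraries held 11 to 42 counts each, and a single exercised ND5 library (mouse B9) held 1. In heart it had 0.219, 0.919 and 1.2 CPM in exercised ANT1 mice and 0.452, 0.944 and 1.86 CPM in non-exercised ANT1 mice, with 4 to 42 counts a library. A single non-exercised ND6 heart (mouse I62) held 1 count, and the other 35 hearts of the mtDNA strains held 0. The strains did not overlap in either tissue, whether scaled by TMM, by library totals or as FPKM.

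Pooled over libraries, Sycp1 had 319 counts in 191.1 M of ANT1 soleus and 1 in 515.4 M of the mtDNA strains, a ratio of 860.4 after division by these totals, with a 95% interval of 153.3 to 34089.3. In heart it had 230 counts in 273.4 M of ANT1 and 1 in 833.3 M of the mtDNA strains, a ratio of 701.0 (124.6 to 27806.6). These intervals cover counting error only and are no test of the strain difference, which chose the gene, and reads of libraries without molecular identifiers are not independent molecules. A count of 0 in the pooled mtDNA libraries would allow up to 0.00582 CPM by library total in soleus and 0.0036 in heart (3 counts of the total). The length that the deposited FPKM implies for Sycp1 in ANT1 soleus had a median of 3117 bases, near the 3189 and 3437 bases of its long coding transcripts, so the counts were not assigned to the 608 base noncoding transcript alone.

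Other germ cell transcripts were near or below detection in soleus. Of 27 other synaptonemal complex and meiosis genes on the list, 2 passed the filter on low counts there. None of 12 male germ cell markers passed. Their summed level on library totals was 0.116 to 0.732 CPM in ANT1 soleus and 0.302 to 1.2 CPM in soleus of the mtDNA strains. In ANT1 soleus 8 of the 12 stood at 0 in every library, among them the transition proteins Tnp1 and Tnp2 and the protamines Prm1 and Prm2, which package DNA in sperm. In heart 2 of the 12 passed, the sum was 1.25 to 2.95 CPM in ANT1 and 1.04 to 3.02 CPM in the mtDNA strains, and Tnp1, Tnp2, Prm1, Prm2, Stra8 and Piwil1 stood at 0 in every ANT1 heart.

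**Figure D1:**
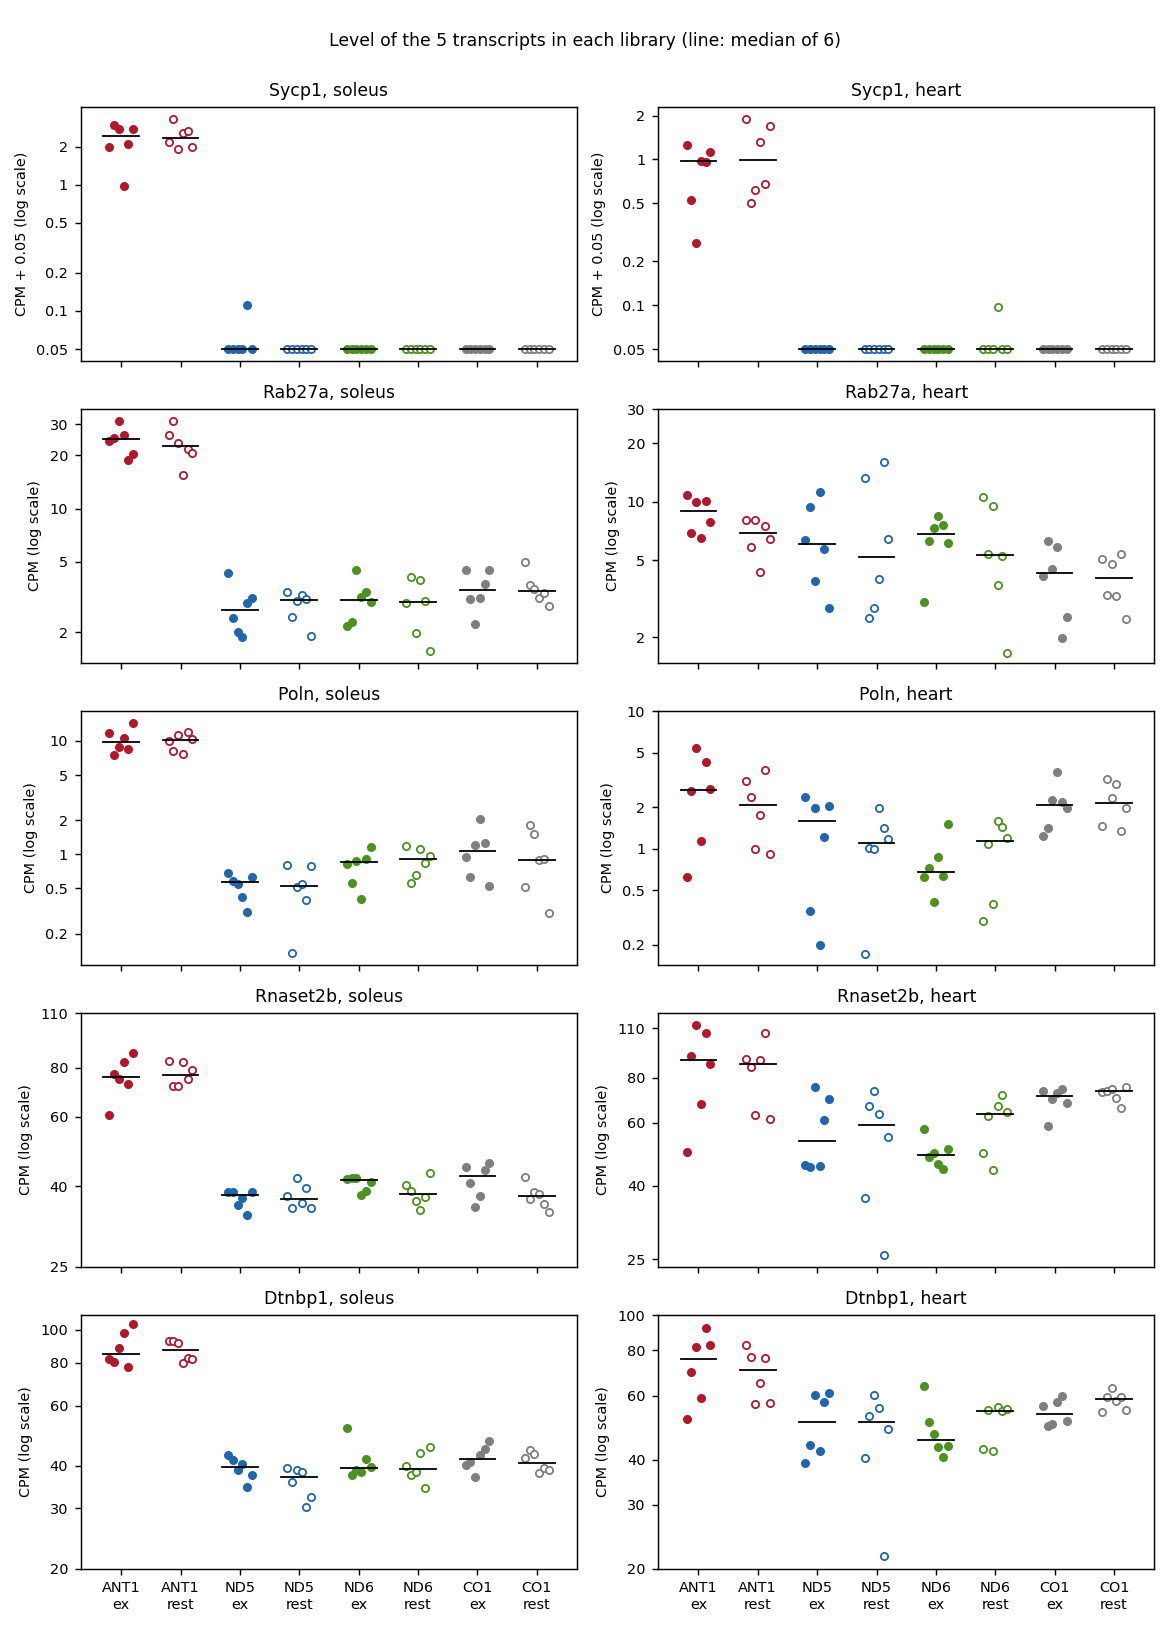
Level of each of the 5 genes in every library (points, TMM-scaled CPM on a log axis, with 0.05 added for Sycp1) by strain and treatment, in soleus (left) and heart (right), with exercised mice as filled and non-exercised mice as open points and lines at the median of 6. In soleus the 12 ANT1 points of every gene lie above all 36 others, and in heart this holds for Sycp1 only.

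Rab27a (ENSMUSG00000032202, chr9:73044854-73097629, plus strand) was high in ANT1 soleus and not set apart in ANT1 heart. In soleus it had 18.7, 24.7 and 31.4 CPM in exercised ANT1 mice and 1.89, 3.09 and 4.50 CPM in exercised mtDNA strains. In non-exercised mice it had 15.6, 22.7 and 31.2 CPM in ANT1 and 1.56, 3.11 and 4.99 CPM in the mtDNA strains. The lowest ANT1 library was thus above the highest of the others, and the log2 difference was 2.97 ± 0.14 (SE) in exercised and 2.91 ± 0.14 in non-exercised mice (2.43 and 2.26 on library totals). In heart exercised ANT1 mice had 6.48, 8.92 and 10.8 CPM and exercised mtDNA strains 1.98, 5.98 and 11.2 CPM. Non-exercised ANT1 hearts had 4.36, 6.94 and 8.10 CPM and non-exercised hearts of the mtDNA strains 1.66, 4.92 and 16.0 CPM. None of 12 ANT1 hearts stood above the highest of the others, and 22 of 36 others stood above the lowest ANT1 heart. The log2 difference in heart was 0.62 ± 0.30 in exercised and 0.24 ± 0.31 in non-exercised mice, and on library totals these were 0.32 and -0.12.

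The highest Rab27a levels in heart were those of 3 ND5 mice, B80 at 16.0, B10 at 13.3 and B71 at 11.2 CPM. Among hearts with Myl7 under 10 CPM, Rab27a was at 4.36 to 10.03 CPM in the 6 ANT1 hearts (median 7.79) and at 1.66 to 5.82 CPM in the 16 others (median 3.53). Among hearts with more Myl7 it was at 5.82 to 10.8 CPM in the 6 ANT1 hearts (median 7.15) and at 2.53 to 16.0 CPM in the 20 others (median 6.37). This split was made after the values had been seen. Its part in the result was not tested.

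Rab27a is best known from melanocytes and cytotoxic lymphocytes, whose markers were therefore measured in the same libraries. On library totals the 9 melanocyte markers summed to 13 to 22.4 CPM in ANT1 soleus and 20.5 to 31.1 CPM in the others. TMM would raise these ANT1 sums relative to the others, so they are not on the scale of the Rab27a levels. Tyrosinase (Tyr) and Oca2 stood at 0 in all ANT1 soleus libraries. The 10 cytotoxic lymphocyte markers summed to 0 to 0.321 CPM in ANT1 soleus and 0.139 to 3.40 CPM in the others, and none passed the filter on low counts. In heart the melanocyte sum was 39.7 to 79.6 CPM in ANT1 and 29.8 to 120.4 CPM in the others, and the cytotoxic sum 0.323 to 3.16 CPM in ANT1 and 0.399 to 9.62 CPM in the others. In these bulk samples fewer cells of a type and less RNA per cell cannot be told apart.

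Poln (ENSMUSG00000045102, chr5:34007179-34169448, minus strand) showed the same division between tissues. In soleus it had 7.47, 9.68 and 14.5 CPM in exercised ANT1 mice and 0.310, 0.658 and 2.05 CPM in exercised mtDNA strains. In non-exercised mice it had 7.65, 10.2 and 12.1 CPM in ANT1 and 0.135, 0.799 and 1.82 CPM in the mtDNA strains. The groups did not overlap, and the log2 difference was 3.71 ± 0.20 in exercised and 3.67 ± 0.20 in non-exercised mice (3.16 and 3.02 on library totals). In heart it had 0.618, 2.66 and 5.36 CPM in exercised ANT1 mice and 0.198, 1.33 and 3.64 CPM in exercised mtDNA strains. Non-exercised ANT1 hearts had 0.908, 2.07 and 3.74 CPM, and those of the mtDNA strains 0.171, 1.39 and 3.19 CPM. The groups overlapped widely in heart, where 3 of 12 ANT1 libraries exceeded the highest of the others and 30 of 36 others exceeded the lowest ANT1 library. The log2 difference was 1.07 ± 0.38 in exercised and 0.66 ± 0.39 in non-exercised hearts (0.70 and 0.35 on library totals).

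The length implied for Poln was short at the median and varied widely. Counts and deposited FPKM together imply a median of 471.1 bases in ANT1 soleus (402 to 618). In soleus of the mtDNA strains it was 536.5 bases (245 to 2515). In heart the medians were 488.6 bases in ANT1 (367 to 626) and 462.5 bases in the others (259 to 2464). This length averages over transcripts by their estimated level, so it does not give the share of reads from short or long ones. The coding transcripts of Poln run to between 2736 and 2897 bases, and 4 noncoding ones to between 392 and 529 bases. Haus3, a subunit of the augmin complex on spindle microtubules, overlaps Poln on the same strand with a start 79 bases away in the annotation, and the sources used here do not say how reads of overlapping genes were divided. Haus3 itself did not pass the test in soleus (log2 difference 0.05 ± 0.12, adjusted p = 0.753 in exercised mice, and 0.21 ± 0.12, adjusted p = 0.143 in non-exercised mice) or in heart (0.15 ± 0.10, adjusted p = 0.458, and 0.07 ± 0.10, adjusted p = 0.849). Its level was 3.94 to 6.03 CPM in ANT1 soleus and 2.5 to 5.67 CPM in the others.

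Rnaset2b (ENSMUSG00000094724, chr17:6970634-7011299, plus strand) stood about 1 log2 unit higher in ANT1 soleus. It had 60.7, 75.8 and 87.0 CPM in exercised ANT1 mice and 33.7, 38.8 and 45.8 CPM in exercised mtDNA strains. In non-exercised mice it had 71.8, 76.8 and 83.2 CPM in ANT1 and 34.5, 37.7 and 43.1 CPM in the mtDNA strains. These groups did not overlap after TMM scaling, with log2 differences of 0.93 ± 0.05 and 1.02 ± 0.05. On library totals the differences were 0.38 and 0.37, and on that scale and in FPKM the groups did overlap, with 59.8 to 84.6 FPKM in ANT1 and 48.6 to 70.4 FPKM in the mtDNA strains. In heart it had 49.6, 89.5 and 112.4 CPM in exercised ANT1 mice and 44.6, 58.2 and 75.2 CPM in exercised mtDNA strains, and 61.2, 87.5 and 106.4 CPM in non-exercised ANT1 mice and 25.6, 66.4 and 75.6 CPM in non-exercised mtDNA strains. There 8 of 12 ANT1 libraries exceeded the highest of the others and 25 of 36 others exceeded the lowest ANT1 library, with log2 differences of 0.56 ± 0.14 and 0.43 ± 0.14 (0.25 and 0.14 on library totals).

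Rnaset2a, the copy on the same chromosome at chr17:8115445-8148097 on the minus strand, moved with it. Their coding transcripts of 1783 and 1793 bases are identical at 1776 of 1783 aligned bases and share a run of 819 bases. The division of reads between such copies rests on the estimate made in counting. Counts and FPKM imply median lengths of 766 bases for Rnaset2b and 999 for Rnaset2a in ANT1 soleus. The counts were thus not assigned to these transcripts alone, and the likeness of other forms was not measured. Rnaset2a had 40.6 to 58.9 CPM in ANT1 soleus and 22.1 to 30.1 CPM in the others, with log2 differences of 0.99 ± 0.06 in exercised and 0.97 ± 0.06 in non-exercised mice. Rnaset2b took 56.6 to 63.4% of the pair in ANT1 soleus (median 59.3%) and 55.2 to 65.4% in the others (median 60.2%), and a median of 66% in ANT1 heart and 65.3% in the other hearts. The sum of both had 101.3 to 141.6 CPM in ANT1 soleus and 59 to 74 CPM in the others, without overlap after TMM scaling. Of all genes tested in soleus 3.65% showed no overlap in that direction. In FPKM the sum overlapped, at 86.4 to 130.8 in ANT1 and 74.7 to 103.6 in the others. So did Rnaset2a alone, at 26.6 to 46.2 and 25.4 to 33.7 FPKM.

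Dtnbp1 (ENSMUSG00000057531, chr13:44922075-45002147, minus strand) resembled Rnaset2b in size and in its dependence on scaling. In soleus it had 77.6, 85.2 and 103.7 CPM in exercised ANT1 mice and 34.8, 40.4 and 51.5 CPM in exercised mtDNA strains. In non-exercised mice it had 80.02, 87.1 and 92.7 CPM in ANT1 and 30.4, 38.8 and 45.3 CPM in the mtDNA strains. The groups did not overlap after TMM scaling, and the log2 differences were 1.11 ± 0.06 and 1.16 ± 0.06. On library totals they were 0.56 and 0.51, and there and in FPKM the groups overlapped, with 45.6 to 69.2 FPKM in ANT1 and 33.3 to 47.9 FPKM in the mtDNA strains. In heart it had 51.8, 75.6 and 92.3 CPM in exercised ANT1 mice and 39.1, 50.4 and 63.9 CPM in exercised mtDNA strains, and 57, 70.4 and 82.6 CPM in non-exercised ANT1 mice and 21.7, 54.6 and 62.9 CPM in non-exercised mtDNA strains. Of the ANT1 hearts 8 of 12 exceeded the highest of the others, 20 of 36 others exceeded the lowest ANT1 heart, and the log2 differences were 0.52 ± 0.12 and 0.42 ± 0.12 (0.22 and 0.14 on library totals).

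In heart the levels of Rnaset2b, Dtnbp1 and Poln were lower where atrial RNA (Myl7) was higher. Among hearts with Myl7 under 10 CPM, Rnaset2b was at 89.5 to 112.4 CPM in the 6 ANT1 hearts and 63.6 to 75.6 CPM in the 16 others. Dtnbp1 was at 64.9 to 92.3 CPM in ANT1 and 50.2 to 62.9 CPM in the others. Neither overlapped after TMM scaling, and these hearts were not compared on library totals. The share of all genes that separated in these hearts alone was not counted. With these fewer hearts 80 of 13555 genes separated ANT1 in both tissues, against 3 with all hearts. The 16 others held 5 exercised and 5 non-exercised CO1 hearts and no exercised ND6 heart. Among hearts with more Myl7 both overlapped, Rnaset2b at 49.6 to 87.3 CPM in 6 ANT1 hearts and 25.6 to 73.1 CPM in 20 others, and Dtnbp1 at 51.8 to 83 CPM in ANT1 and 21.7 to 63.9 CPM in the others. Poln was at 1.77 to 5.36 CPM in ANT1 hearts with little Myl7 (median 3.43) and 0.995 to 3.64 CPM in the others (median 1.98), and at 0.618 to 2.72 CPM (median 1.07) and 0.171 to 2.38 CPM (median 0.943) where Myl7 was higher. The lowest values of Rnaset2b and Dtnbp1 in all hearts, 25.6 and 21.7 CPM, were both those of ND5 mouse B80. Among the 36 hearts of the mtDNA strains Rnaset2b and Dtnbp1 correlated with r = 0.91 and Rab27a ran opposite to both, with r = -0.81 to Rnaset2b and r = -0.74 to Dtnbp1. Those points share library, scaling and the mixture of atrial and ventricular tissue, and no p is given. What the atrial share contributed was not tested.

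**Figure D2:**
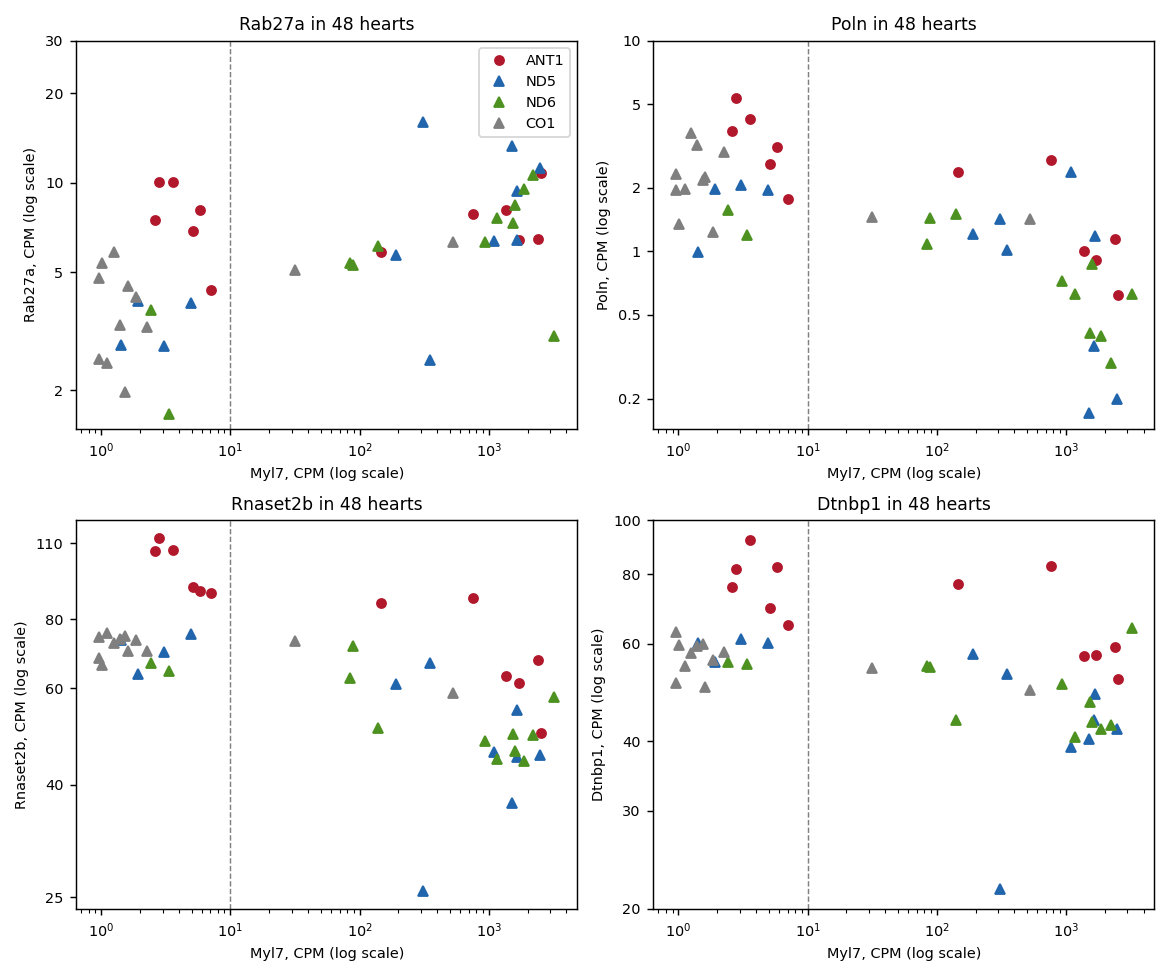
Level of Rab27a, Poln, Rnaset2b and Dtnbp1 (vertical axes, CPM, log scale) against Myl7 (horizontal axes, CPM, log scale) in 48 hearts, with ANT1 hearts as circles, hearts of the mtDNA strains as triangles coloured by strain, and a dashed line at 10 CPM of Myl7. Rnaset2b and Dtnbp1 of the 6 ANT1 hearts left of the line lie above those of the 16 other hearts there, on this TMM-scaled CPM. With these hearts 80 of 13555 genes separated ANT1 in both tissues.

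Levels in the 2 tissues are set side by side as a description, since soleus levels of ANT1 and of the mtDNA strains chose these genes. In non-exercised mtDNA strains the log2 difference, soleus minus heart, was -0.68 ± 0.18 (SE) for Rab27a, -0.60 ± 0.25 for Poln, -0.49 ± 0.08 for Rnaset2b and -0.21 ± 0.07 for Dtnbp1. Of all 16172 genes fitted 40.9% were called lower in soleus. In non-exercised ANT1 mice the means ran the other way. Rab27a averaged 25 ± 5.60 CPM in ANT1 soleus and 6.17 ± 1.36 CPM in ANT1 heart (SD, n = 6 each), on normalization over both tissues, and Poln 10.7 ± 1.90 and 1.97 ± 1.03 CPM. Dtnbp1 averaged 94.0 ± 6.16 CPM in ANT1 soleus and 63.5 ± 9.54 CPM in ANT1 heart. Rnaset2b averaged 83.5 ± 6.02 and 76 ± 15.3 CPM, a difference within the spread of the hearts, and Sycp1 2.58 ± 0.57 and 0.984 ± 0.553 CPM.

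Ordered per length in soleus, mean FPKM was 73 in ANT1 and 56.5 in the mtDNA strains for Rnaset2b, 57.6 and 39.9 for Dtnbp1, 15.4 and 1.80 for Poln, 6.90 and 1.32 for Rab27a, and 0.622 and 0.00083 for Sycp1. Rnaset2b and Dtnbp1 were thus abundant in every strain, Poln and Rab27a low outside ANT1, and Sycp1 low even in ANT1.

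No effect of training on the 5 genes was detectable with 6 mice a group. No gene of the whole table passed an adjusted p of 0.05 for training in ANT1 with edgeR (0% called in each tissue, 350 genes in soleus and 353 in heart at an unadjusted p under 0.05, and 1 gene in each tissue with DESeq2). In ANT1 soleus the log2 difference, exercised minus non-exercised, was -0.11 ± 0.28 for Sycp1 (95% interval -0.68 to 0.47), 0.08 ± 0.18 for Rab27a (-0.29 to 0.44) and 0.05 ± 0.23 for Poln (-0.43 to 0.52). The intervals of Rnaset2b (-0.16 to 0.11) and Dtnbp1 (-0.14 to 0.18) were the narrowest. In ANT1 heart the intervals were wider, -1.37 to 0.54 for Sycp1, -0.39 to 1.13 for Rab27a, -0.62 to 1.35 for Poln, -0.31 to 0.42 for Rnaset2b and -0.24 to 0.39 for Dtnbp1. Training over the 4 strains together and the difference in training between ANT1 and the mtDNA strains called no gene in either tissue with edgeR, with 536 and 397 genes in soleus and 538 and 238 in heart at an unadjusted p under 0.05, and with DESeq2 1 gene each in heart.

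No difference in these genes among the mtDNA strains passed the test. In soleus ND5 minus ND6 called 14.5% of all genes (9.97% higher and 4.51% lower) and none of the 4 that could be fitted. Poln came nearest, with -0.77 ± 0.34 for ND5 minus ND6 (adjusted p = 0.12) and -0.86 ± 0.34 for ND5 minus CO1 (adjusted p = 0.134). In heart ND5 minus CO1 called 11.2% of genes (9.27% higher and 1.92% lower) and none of the 4, and without mouse B80 the 1760 genes called were 5. There the difference was 0.90 ± 0.38 for Rab27a (adjusted p = 0.104), -0.43 ± 0.18 for Rnaset2b (adjusted p = 0.0987) and -0.32 ± 0.16 for Dtnbp1 (adjusted p = 0.144). ND6 minus CO1 gave -1.16 ± 0.50 for Poln in heart (adjusted p = 0.307). Most hearts with little Myl7 among the mtDNA strains were CO1 hearts, 10 of 16, and its part in these differences was not tested. ND5 minus CO1 in soleus, ND6 minus CO1 in both tissues and ND5 minus ND6 in heart called no gene with edgeR, against 3080, 286, 2164 and 1025 genes at an unadjusted p under 0.05, and 410, 1, 96 and 1 with DESeq2.

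Exercised mice are also labelled as responders or non-responders to training, and in exercised soleus no gene passed that comparison with edgeR (622 at an unadjusted p under 0.05). The log2 difference, responder minus non-responder, was 0.33 ± 0.20 for Poln, 0.12 ± 0.06 for Dtnbp1 (95% interval -0.00064 to 0.25), -0.14 ± 0.15 for Rab27a and -0.001 ± 0.058 for Rnaset2b, each with an adjusted p of 0.954 or more.

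**Figure D3:**
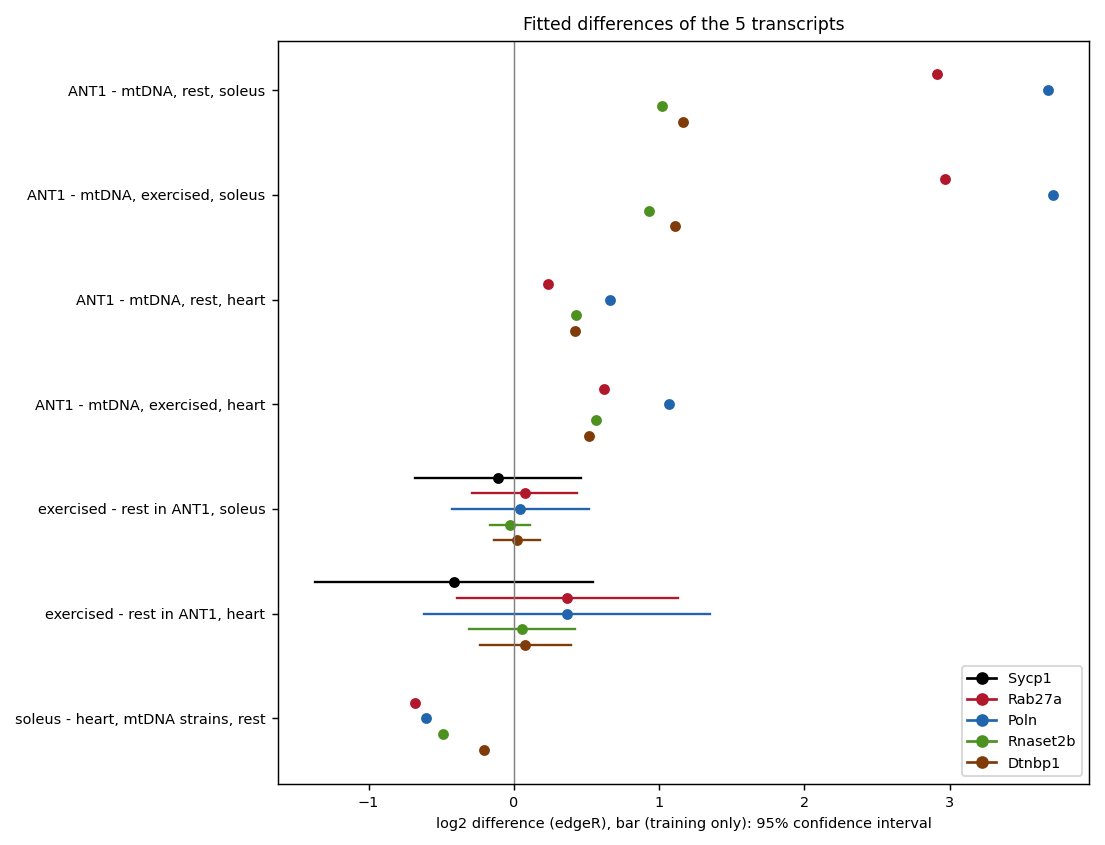
Fitted log2 differences (points, horizontal axis, edgeR) for the 5 genes in 7 comparisons, where rest means non-exercised, with 95% confidence intervals (bars) for training. Sycp1 is shown for training only. The intervals for training in ANT1 all span 0, and the other points describe groups whose levels chose the genes and carry no interval.

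Against the whole table, all 5 genes were among the 508 of 13935 genes (3.65%) whose 12 ANT1 soleus libraries all lay above the 36 others, a share that the choice of these genes fixes. In heart 7 of 15723 genes (0.0445%) had that form, and 3 of 13555 tested in both tissues (0.0221%) had it in both. The 3 were Sycp1, Arrdc4, an alpha-arrestin, and Rnaseh2a, the catalytic subunit of RNase H2. The gap from the lowest ANT1 library to the highest other one was 2.44 log2 units in soleus and 1.19 in heart for Sycp1, 0.19 and 0.35 for Arrdc4, and 0.056 and 0.0042 for Rnaseh2a. On library totals and in FPKM only Sycp1 of the 3 kept the gap in both tissues. Dtnbp1 ranked 98 by the smaller of its gaps, with 0.59 in soleus and -0.30 in heart, Rnaset2b 1639 with 0.41 and -0.60, Rab27a 9089 with 1.62 and -1.85, and Poln lower still with 1.80 and -2.40, where a negative gap is an overlap. Among hearts with Myl7 under 10 CPM, 80 genes separated ANT1 in both tissues, and Sycp1, Rnaset2b and Dtnbp1 were among them.

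By the same gap genes with a gene symbol that ranked after Rnaseh2a included Slc25a28, Ddx23, Napa, Asna1, Sf3b2 and Trappc6b. In the other direction Slc25a4, the deleted gene, came first, and among genes with a gene symbol Crnde (1.59 log2 units in soleus and 0.45 in heart), Gsr, Tnpo2 and Cnep1r1 followed. These 4 all lie on chromosome 8, as does Slc25a4, and of the 10 genes with a gene symbol ranked highest 2 do, Rnaseh2a and Asna1. Chromosome 8 holds 5.44% of the 12098 genes tested in both tissues with a known chromosome. Sycp1, Rab27a, Poln, Rnaset2b and Dtnbp1 lie on chromosomes 3, 9, 5, 17 and 13, apart from Slc25a4 and from each other.

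**Figure D4:**
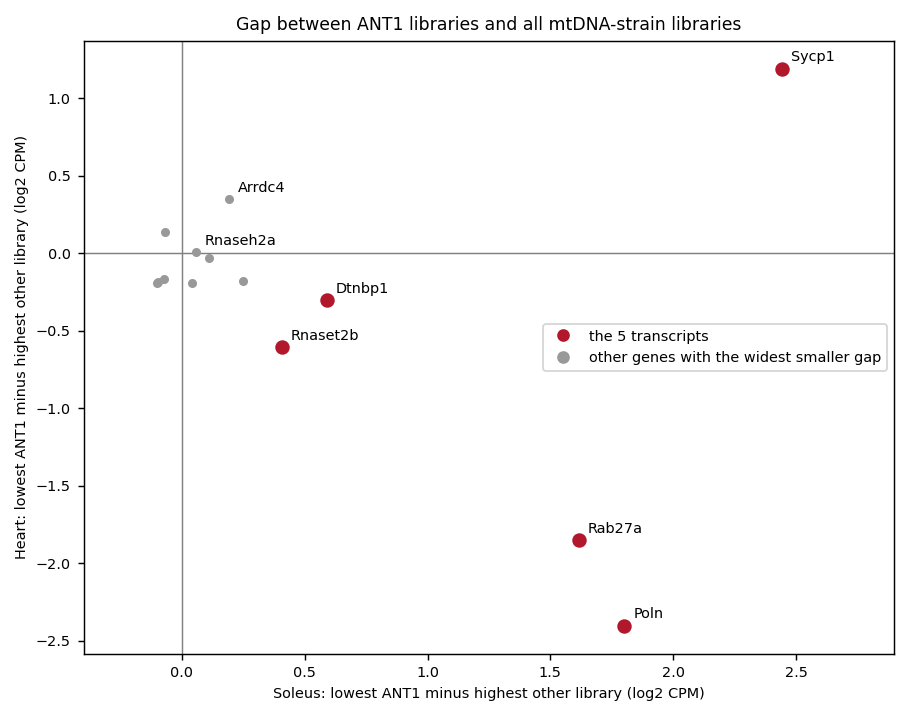
Gap between the lowest ANT1 library and the highest library of the mtDNA strains (log2 CPM) in soleus (horizontal axis) and heart (vertical axis) for the 5 genes (red) and, among genes with a gene symbol, for the 9 others with the widest smaller gap (grey). Sycp1 lies far to the upper right, and Rab27a and Poln lie right of 0 in soleus and at the bottom in heart.

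The genes whose levels followed each of the 5 most closely were found by the smaller of Pearson's r over 48 soleus and 48 heart libraries. The points share library and scaling, and in soleus they fall into ANT1 and the rest, so r is a description with no p. Sycp1 was followed by Arrdc4 (0.89), Ddx23 (0.83) and Rnaseh2a (0.83). Rab27a was followed by Mlph (0.84), Trim67 (0.79) and Inpp4a (0.76), and Poln by Isoc2a (0.88), Hibch (0.87) and Grpel1 (0.86). For Rnaset2b they were Pebp1 (0.96), S100a1 (0.95) and Pdhb (0.95), and for Dtnbp1 Fars2, Ndufa12 and Ndufb7 (0.94, 0.93 and 0.93). Within ANT1 hearts Poln, Rnaset2b and Dtnbp1 went together (r = 0.89 to 0.98, n = 12), and within soleus groups the r between the 5 genes ran from -0.28 to 0.52.

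Mlph, which encodes melanophilin, the Rab27a effector that links melanosomes to myosin, also led the list of 24 Rab27 effectors and regulators. Its log2 difference in soleus was 2.5 ± 0.27 in exercised (adjusted p = 2.8e-10) and 3.21 ± 0.28 in non-exercised mice (adjusted p = 3.1e-13), and 1.94 and 2.56 on library totals. Of the 18 list genes tested in soleus, 4 rose and 8 fell in non-exercised mice, with a median of -0.25 beside -0.036 over all genes. In that comparison 47.7% of all genes passed the test, 22.4% higher and 25.4% lower. Rabggtb, a subunit of the enzyme that attaches lipid anchors to Rab proteins, rose by 0.39 ± 0.05 (-0.26 on library totals), and Rab32, another Rab of melanosome traffic, fell by 1.82 ± 0.37. In exercised mice 3 rose and 5 fell (21.1% and 22.4% of all genes). Mlph did not pass the test in heart (0.11 ± 0.45 in exercised and 0.23 ± 0.45 in non-exercised mice, and -0.16 and -0.11 on library totals). Of 20 tested there Chml, an escort protein of Rab prenylation, fell in exercised mice (-0.47 ± 0.08, adjusted p = 0.00049), where 1.32% of all genes were called lower.

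Which genes rose depends on the scaling, since the median log2 difference over all genes in soleus was -0.69 in non-exercised and -0.57 in exercised mice on library totals, and -0.27 and -0.26 in heart, against -0.036, -0.021, 0.008 and 0.007 with TMM. With TMM 3120 genes were called higher and 3533 lower in non-exercised soleus (22.4% and 25.4%), and on library totals 381 and 11578. In exercised soleus the calls were 2936 higher and 3128 lower with TMM and 408 and 10870 on library totals. In heart they were 97 and 47 in non-exercised and 543 and 208 in exercised mice with TMM, and 56 and 1376, and 67 and 1594, on library totals, and with TMM computed without mtDNA genes 357 and 229 in exercised heart. Rises below are therefore relative to the typical gene, as TMM scales it. On library totals 1 of the 18 Rab27 genes (Mlph) rose and 17 fell in non-exercised soleus, and on the other 5 lists, those of genes working with Sycp1, Poln, Rnaset2b and Dtnbp1, none other than Rnaset2a was called higher there.

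For Poln, 19 of the other 21 translesion and cross-link repair genes were tested in soleus, of which 6 rose and 5 fell in non-exercised mice, where 22.4% of all genes were called higher and 25.4% lower. In exercised mice 5 rose and 2 fell, where 21.1% of all genes were called higher and 22.4% lower. Mad2l2, the REV7 subunit of polymerase zeta, rose by 0.74 ± 0.09 in non-exercised soleus (adjusted p = 3.1e-09), Polq, another A-family polymerase, by 0.65 ± 0.16 (adjusted p = 0.00102), and Primpol fell by 0.96 ± 0.24 (adjusted p = 0.00091). On library totals the differences of Mad2l2 and Polq were 0.08 and 0.003 and neither was called. In heart Mad2l2 was the only one of 21 to pass, in exercised mice (0.36 ± 0.10, adjusted p = 0.023, and 0.09 on library totals), where 4.78% of all genes passed. The list's median in non-exercised soleus, -0.030, was close to that of all genes.

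For Rnaset2b, 17 ribonucleases and acid hydrolases other than it and Rnaset2a were tested in soleus. Of these 6 rose and 6 fell in non-exercised soleus (22.4% and 25.4% of all genes), and 6 rose and 2 fell in exercised soleus (21.1% and 22.4% of all genes). Cathepsin L (Ctsl) rose by 0.66 ± 0.07 (adjusted p = 2.2e-10) and the lysosomal membrane protein Lamp1 by 0.29 ± 0.05, and lysosomal acid phosphatase (Acp2) fell by 0.33 ± 0.06 in non-exercised soleus. On library totals Ctsl was at 0.007 and Lamp1 at -0.35. In heart Dnase2a rose in non-exercised mice (0.61 ± 0.12, adjusted p = 0.00174) and Ctsl and Pld3 in exercised mice, of 18 tested, where 0.617% and 3.45% of all genes were called higher. On library totals these 3 were at 0.33, 0.10 and -0.004 and none was called.

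For Dtnbp1, its partners split. Of 17 BLOC-1, BLOC-2, BLOC-3 and AP-3 subunits, which sort cargo to lysosome-related organelles, 5 rose and 4 fell in both exercised and non-exercised soleus, where 21.1% and 22.4% of all genes were called higher and 22.4% and 25.4% lower. Bloc1s2, which shares BLOC-1 with dysbindin, rose by 0.43 ± 0.08 (adjusted p = 3.5e-05) and the AP-3 subunit Ap3b1 by 0.31 ± 0.07 in non-exercised soleus, where the BLOC-2 subunit Hps3 fell by 0.50 ± 0.09 (adjusted p = 9.9e-06). On library totals Bloc1s2 and Ap3b1 were at -0.22 and -0.34. In exercised heart Bloc1s2 (0.49 ± 0.12, adjusted p = 0.0105) and Ap3b1 (0.22 ± 0.07, adjusted p = 0.0456) rose, at 0.19 and -0.06 on library totals and Ap3b1 not called with DESeq2 size factors (adjusted p = 0.06), and in non-exercised heart Hps6 fell (-0.47 ± 0.12, adjusted p = 0.048). Of 13 genes of the dystrobrevin complex at the muscle membrane, 3 rose and 7 fell in non-exercised soleus (22.4% and 25.4% of all genes), among them alpha-sarcoglycan (Sgca, 0.49 ± 0.08, and -0.16 on library totals) and dystroglycan (Dag1, -0.69 ± 0.11). In exercised soleus 3 rose and 4 fell (21.1% and 22.4% of all genes), and in heart none passed with edgeR.

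For Sycp1, 2 of the 27 other meiosis genes were tested in soleus, and Mlh3, a mismatch repair protein of meiotic crossing over, fell in both non-exercised (-0.26 ± 0.11, adjusted p = 0.0434) and exercised mice (-0.37 ± 0.11, adjusted p = 0.00518), the first of which missed the threshold with DESeq2 size factors (adjusted p = 0.054). In heart none of 6 tested passed. Among germ cell markers Ddx4 rose in exercised ANT1 heart (1.25 ± 0.36, adjusted p = 0.035), a call lost on library totals (0.91, adjusted p = 0.0725). Of melanocyte markers Mitf rose in non-exercised (0.25 ± 0.10, adjusted p = 0.029, and -0.40 on library totals) and Dct fell in exercised soleus (-0.56 ± 0.23, adjusted p = 0.0417). Macrophage markers moved with the strain in soleus. Of 10, all tested, 8 fell in non-exercised and 10 in exercised mice, where 25.4% and 22.4% of all genes were called lower. Their sum on library totals was 24.2 to 60.9 CPM in ANT1 soleus and 34.9 to 486.4 CPM in the others. Their part in the levels of Rab27a and the others was not tested.

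Genes near the 5 were called at shares close to those of the whole table. Of 131 genes within 2 Mb tested in soleus (the 5 and Rnaset2a left out), 27 rose and 37 fell in non-exercised mice, 48.9% where 47.7% of all genes passed. In exercised mice 26 rose and 27 fell, 40.5% where 43.5% of all genes passed. In heart 1 of 144 passed in non-exercised mice, where 0.916% of all genes did, and 4 in exercised mice, 2.78% where 4.78% of all genes did. The segments that any strain carries were not measured.

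By gene, the share called in non-exercised soleus was 62.5% around Rnaset2b and Dtnbp1, 47.5% around Poln, 39.4% around Sycp1 and 38.9% around Rab27a (47.7% of all genes). In exercised soleus it was 58.3%, 56.2%, 30%, 39.4% and 27.8% around Rnaset2b, Dtnbp1, Poln, Sycp1 and Rab27a (43.5% of all genes). Of 24 neighbours of Rnaset2b other than Rnaset2a, 10 rose and 5 fell in non-exercised soleus, where 22.4% of all genes were called higher and 25.4% lower. Mpc1, a subunit of the mitochondrial pyruvate carrier, rose by 1.02 ± 0.06 (adjusted p = 3.7e-18), Tagap1 by 1.01 ± 0.07, Rsph3b by 0.93 ± 0.06 and Fgfr1op by 0.82 ± 0.08. Rnaset2a, Rsph3b, Rsph3a, Tagap1, Tagap, Dynlt1a and Dynlt1f have similar copies in that stretch, so their counts are uncertain. On library totals Mpc1, Tagap1 and Rsph3b were at 0.37, 0.36 and 0.28, all still called, and Fgfr1op at 0.16 was not. Rsph3a was the neighbour that passed in heart in both non-exercised (0.45 ± 0.09, adjusted p = 0.00535) and exercised mice (0.31 ± 0.09, adjusted p = 0.0468, and 0.0551 with DESeq2 size factors). On library totals it was at 0.18 and 0.04 in these and not called, and it was at -0.25 in non-exercised soleus on library totals, against 0.41 ± 0.07 with TMM.

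The counts around the other 4 genes are also for non-exercised soleus, beside 22.4% of all genes called higher and 25.4% lower. Around Dtnbp1, 5 of 16 neighbours rose and 5 fell, with the mitochondrial deacylase Sirt5 at 1.03 ± 0.07 (adjusted p = 5.1e-16, and 0.38 on library totals) and Cap2 at -0.49 ± 0.05. In this comparison with TMM all 5 risers lay on one side of Dtnbp1 and all 5 fallers on the other. That order was not a planned comparison and was not tested. Around Sycp1, 4 of 33 rose and 9 fell, with AMP deaminase Ampd1 at -0.61 ± 0.08. Around Rab27a, 2 of 18 rose and 5 fell, with Myzap at 0.98 ± 0.12 (adjusted p = 2.0e-09, and 0.32 on library totals) and Rfx7 at -0.68 ± 0.10. Around Poln, 6 of 40 rose and 13 fell, with Letm1, a cation exchanger of the inner mitochondrial membrane, at 0.67 ± 0.07 (adjusted p = 5.1e-11, and 0.03 on library totals), Nat8l at 1.18 ± 0.25 and Sh3bp2 at -1.43 ± 0.32. In exercised heart the Poln neighbours Mxd4 (0.24 ± 0.07, adjusted p = 0.04) and Acox3 (0.23 ± 0.07, adjusted p = 0.029) rose, at -0.03 and -0.07 on library totals and Mxd4 not called with DESeq2 size factors (adjusted p = 0.0577), and Prr14l fell (-0.41 ± 0.11, adjusted p = 0.0245).

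**Figure D5:**
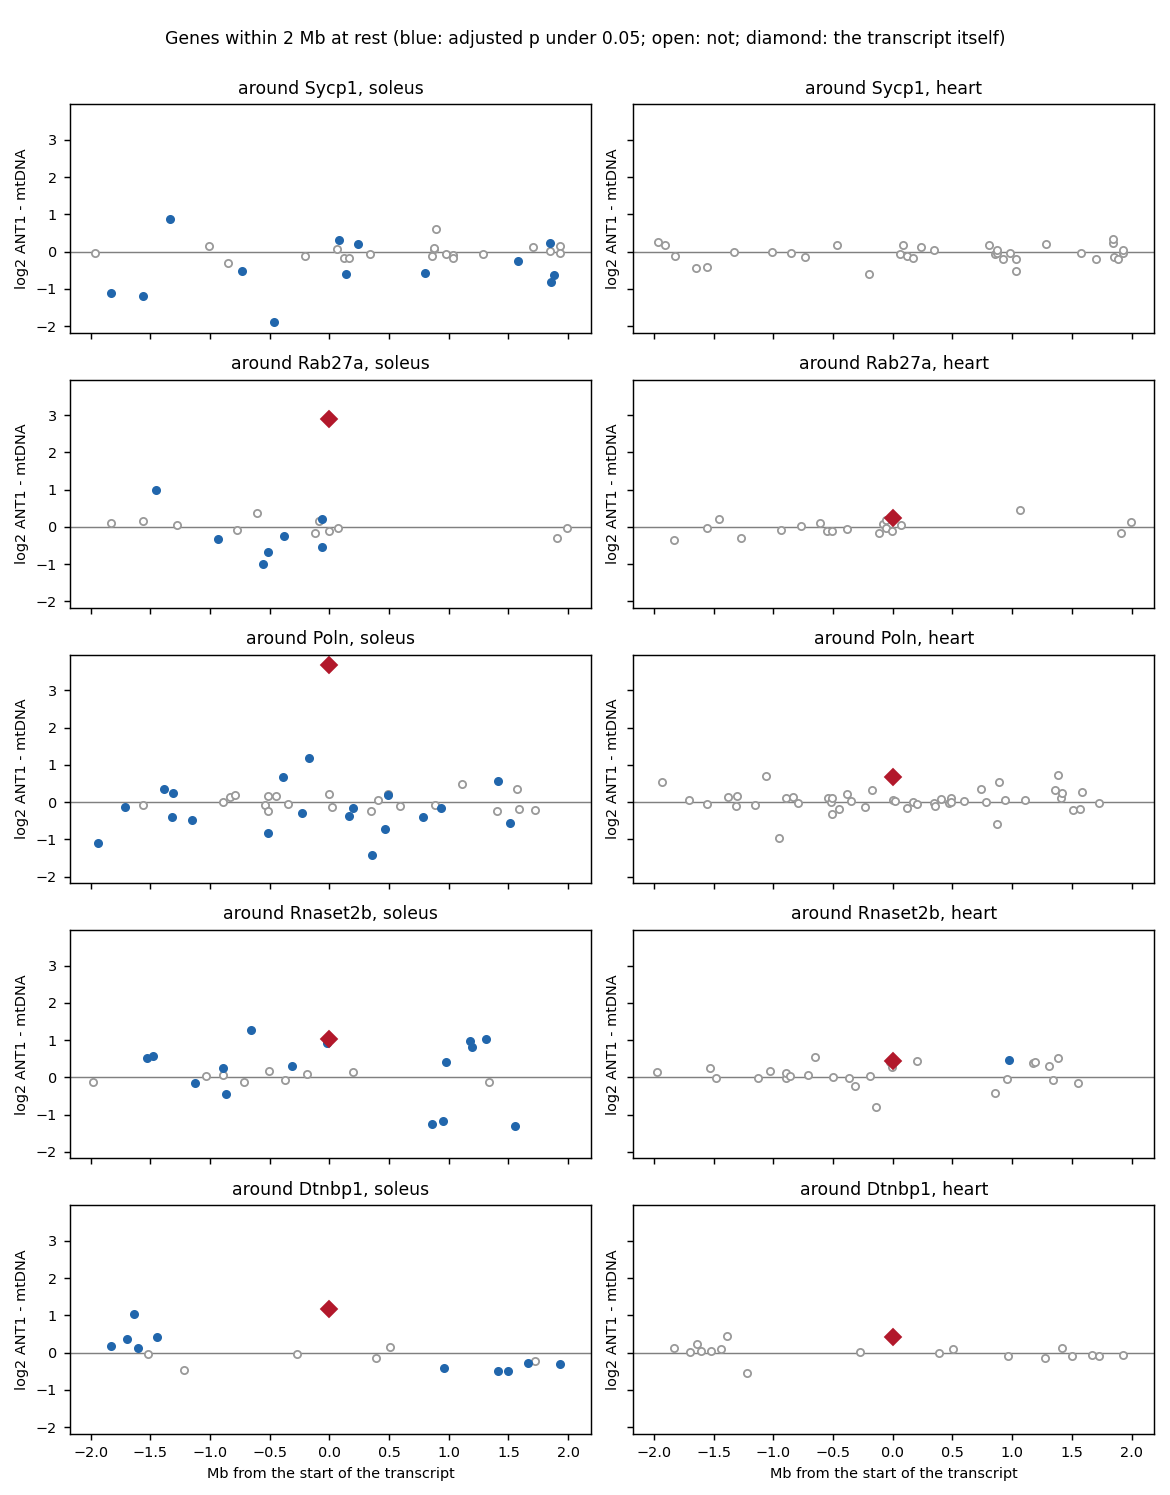
Log2 difference, ANT1 minus the mtDNA strains in non-exercised mice (vertical axes), of every tested gene within 2 Mb (horizontal axes, distance from the start of the named gene) in soleus (left) and heart (right), with filled points for an adjusted p under 0.05 and a diamond for the named gene itself where it was fitted (Rnaset2a included). In soleus filled points lie on both sides of 0 around every gene, and in heart the only filled one is Rsph3a near Rnaset2b.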

How the data were processed

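RNA-seq of soleus and heart was analysed from 96 libraries, 6 per strain, treatment and tissue. The authors deposited expected counts per gene, not normalized, and FPKM (fragments scaled by length and depth), made with STAR 2.5.2b and RSEM 1.2.28 on mm10, per the submitters' processing notes, which give no settings. Of the columns, 24 match no sample title and were not used. The members and all gene lists were chosen with earlier results of these data known.

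Expected counts were rounded, filtered with filterByExpr by group and fitted per tissue with edgeR 4.0.16 (R 4.3.3, TMM, quasi-likelihood test, Benjamini-Hochberg adjustment over all genes tested, threshold 0.05), with a mean per strain and treatment. This left 13935 genes in soleus and 15723 in heart. Differences between ANT1 and the mtDNA strains chose the 5 genes, so for these genes and Rnaset2a they, and differences between tissues, carry no p in the text. Levels are TMM-scaled CPM, except sums over marker lists, which are CPM on library totals, and log2 CPM has a prior count of 2. DESeq2 1.42.0 and limma 3.58.1 served as alternatives, and the fitting was tested on simulated data. FPKM was used as log2(FPKM + 0.1), and the implied length is the count over FPKM and library total, for FPKM of at least 0.1. Genes are named where they overlap or nearly copy a member, lie within 2 Mb, stand among the 10 highest or 5 lowest by the gap between strains (by gene symbol), are the 3 most correlated with a member, or are among the 4 of a list with the smallest adjusted p.

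No 2 libraries of a group were identical (120 pairs per tissue, chi-square per gene of at least 6.31). The labels give mouse codes but not litters or batches. Of these codes 19 occur in both tissues, among them B80 with its opposite training labels, and were taken as the same animal. Deviations from the group means correlated at a median of 0.049 (-0.30 to 0.33, 8 over 0.1), which does not establish that they are. Spans and transcripts come from GENCODE vM21 on GRCm38, and promoter windows from RefSeq on GRCm38.p6. Some named genes and promoter windows are not reported here.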

Additional observations from a re-analysis of the deposited data

Results flagged for a closer look

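Of 70 groups of 6 libraries, 6 held a library whose gap to its nearest neighbour exceeded Dixon's limit of 0.625 of the group's range, and chance flags about 1 group in 20. Sycp1 was at 0.935 CPM in the soleus of exercised ANT1 mouse A43, the lowest of its group. The single counts of Sycp1 outside ANT1, 1 in the soleus of exercised ND5 mouse B9 and 1 in the heart of non-exercised ND6 mouse I62, stood out because all other libraries of their groups were at 0. Dtnbp1 was at 51.5 CPM in the soleus of exercised ND6 mouse I50, the highest of its group and of all 36 soleus libraries of the mtDNA strains. Rab27a was at 3.04 CPM in the heart of exercised ND6 mouse I4, the lowest of its group. Poln was at 0.171 CPM in the heart of non-exercised ND5 mouse B10, the lowest of all hearts.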

How the results depend on the processing

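No setting gave a member a call for training, for responders or between mtDNA strains, and in soleus the differences between ANT1 and the mtDNA strains stayed positive under all. With Rnaset2a counted, the number of neighbours called in soleus, 65 in non-exercised and 54 in exercised mice, was 33 and 28 within 1 Mb, 131 and 129 within 5 Mb, and 119 and 120 on library totals. In non-exercised heart it was 1, against 2 with DESeq2, 3 within 5 Mb, 3 in hearts with Myl7 under 10 CPM, 11 on library totals and 2 without mouse B80. In exercised heart it was 5, against 2 with DESeq2 size factors, 2 within 1 Mb, 15 within 5 Mb, 9 in hearts with Myl7 under 10 CPM, 9 on library totals, 1 with no filter, 1 with TMM without mtDNA genes and 9 without B80. The 3 genes separating ANT1 in both tissues were 80 in hearts with Myl7 under 10 CPM, 1 on library totals and 1 in FPKM. Over all genes, calls between ANT1 and the mtDNA strains in non-exercised heart (144) were 644 in hearts with Myl7 under 10 CPM and 1432 on library totals, and in exercised heart (751) 1217, 1661 and, with no filter, 347. In soleus (6653 and 6064) they were 11959 and 11278 on library totals. ND5 minus CO1 in heart (1760) gave 1032 with no filter and 5 without B80, and no filter gave 3 for it in soleus, 1 for training in ANT1 soleus and 17 for responders. Library totals and the Myl7 limit were chosen after seeing the data.

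Signs turned for some values, each smaller than its SE. Rab27a in non-exercised heart, 0.24 with TMM, was at -0.12 on library totals. Without B80, ND5 minus ND6 in heart was 0.031 for Dtnbp1, against -0.13 with B80. For Rab27a it was -0.055, against 0.32 with B80. Dtnbp1 for training over the 4 strains in heart, 0.0055, was -0.00026 with DESeq2, -0.00033 with its size factors, -0.0038 with TMM without mtDNA genes and -0.037 without B80. Rnaset2b in responders was 0.0010 with DESeq2 and 0.0011 with its size factors. The cause was not tested. Leaving out 1 library at a time called no gene for training in ANT1 or for responders. Training in ANT1 then ran from -0.00087 to 0.16 for Dtnbp1 and -0.038 to 0.17 for Rnaset2b in heart. In soleus it ran from -0.032 to 0.053 for Dtnbp1, -0.077 to 0.12 for Poln, -0.020 to 0.17 for Rab27a, -0.074 to 0.029 for Rnaset2b and -0.21 to 0.046 for Sycp1. Rnaset2b in responders ran from -0.027 to 0.033. With mouse as a block, soleus minus heart for Poln was -0.50, against -0.60 without the block, a description since soleus levels chose the gene. Sycp1, at 4 to 42 counts a library, is limited by depth.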
